A study of Malus domestica with 5 samples.

Results

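The novelMiR candidates are small RNA features of apple (Malus domestica) that the depositors' count table lists under names beginning with novelMiR, and every row with such a name was taken. They make up 269 of the 430043 features in the table. Rows with identical counts in all 5 libraries were counted once, which left 167 sets of counts, each called a candidate below and named after its first row in the table. Small RNAs were sequenced from buds of the juvenile phase (2 libraries) and of the reproductive phase (3 libraries), with no treatment, cultivar or age given in the labels. The tissue label describes the juvenile material as a sucker of juvenile character taken at the base of the stem, and names reproductive buds alone for the other group. Position on the tree and growth phase therefore cannot be told apart in these libraries, and the labels do not say whether libraries of one group came from separate trees. What the p-values measure is thus the spread between libraries, which may be technical.

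A plant microRNA is cut from a hairpin-shaped precursor by a Dicer-like enzyme and guides an Argonaute protein to messenger RNAs of matching sequence, which are cut or translated less. A candidate miRNA is a small RNA locus that a prediction has put forward as such a gene without its having an established family name. Small interfering RNAs, which come from long double-stranded RNA and often from repeats, are the main other class in such libraries. In seed-grown trees such as apple, the passage from the juvenile to the reproductive phase is associated with changes in conserved miRNAs. The table gives a name and counts for each candidate. The sequence, length, hairpin, genome position and targets of the candidates were not analysed here, so neither their status as miRNAs nor a role in the bud was checked.

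Names and candidates did not correspond one to one. Of the 167 candidates, 119 had a single name, and the remaining 48 held 150 names between them. The largest set was novelMiR_3641, whose counts stood under 13 names. Sets of 2 names were the most frequent kind with several names, with 26 cases. Names within a set cannot be told apart by these counts. Counts identical to those of a feature outside the series were found for 32 candidates, 31 of them with a repeat and 1 with a candidate of the other naming series. None was identical to a named apple miRNA. All 32 had at most 52 counts summed over the 5 libraries, a range in which equal counts can arise between unrelated features. Of the 81 candidates with more counts than that, 29 had several names of the series.

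Most candidates were detected in most libraries, at low counts. With a count above 0 taken as detection, 160 and 154 of the 167 candidates were detected in juvenile replicates 1 and 2, and 166, 165 and 167 in reproductive replicates 1, 2 and 3. Libraries differed in depth: the counts of all features summed to 85087230 or more in each juvenile library (at most 97283456) and to 122455352 or more in each reproductive one (at most 140173167), so the higher detection in the reproductive group was not tested. The median count per candidate was 8 and 6 in juvenile libraries against 14, 12 and 12 in reproductive ones. In all 5 libraries 149 candidates were detected, and 55 had at least 10 counts in each. No candidate was missing from all 3 reproductive libraries. The 3 that had no count in either juvenile library had between 5 and 12 counts in each reproductive one, too few for a fold change to be given.

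Abundance was spread over a wide range. As CPM (the count divided by the library's total and scaled to 1000000), averaged over the 5 libraries, 1 candidate was above 100, 1 lay between 10 and 100, 14 lay between 1 and 10, and 151 were below 1. The median candidate had 0.0898 CPM. Small RNA reads are taken to cover a whole molecule, so levels are given as counts per feature and were not divided by length. Each candidate's level also carries the efficiency with which its ends were ligated.

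novelMiR_3279 (its counts also stand under novelMiR_3803) dominated the series. It had 7671 and 7815 counts in juvenile replicates 1 and 2, and 39004, 30459 and 35501 in reproductive replicates 1, 2 and 3. It was the most abundant candidate in every library, followed in every library by novelMiR_4508. The lead over novelMiR_4508 was 7.10-fold and 10.1-fold in juvenile libraries against 17.9-fold, 26.3-fold and 32.3-fold in reproductive ones. Set among the 79 distinct count sets of named apple miRNAs, the counts of novelMiR_3279 would rank 7 and 6 in juvenile libraries and 5 in each reproductive library.

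The concentration of counts differed between the groups, and because it is a quotient within a library it does not depend on scaling. novelMiR_3279 held 48.4% and 52.7% of the candidate counts in juvenile libraries against 79.0%, 78.2% and 81.1% in reproductive ones. The groups did not overlap, with means of 50.5% ± 3.0 (SD, n = 2) and 79.4% ± 1.48 (SD, n = 3). The difference of 28.9 percentage points had a two-sided exact permutation p of 0.1, the smallest that the 10 splits of 2 against 3 libraries allow, and 0.1 after Benjamini-Hochberg adjustment over 3 quotients. The quotient of novelMiR_3279 over all other candidates together was 0.939 in juvenile replicate 1, 1.11 in juvenile replicate 2, and 3.77, 3.59 and 4.28 in reproductive libraries. The effective number of candidates, the inverse of the summed squared shares, was 4.01 and 3.45 in juvenile buds against 1.59, 1.63 and 1.52 in reproductive libraries. With novelMiR_3279 left out it was 17.8 in both juvenile libraries and 14.3, 19.9 and 20.6 in reproductive ones, and the groups then overlapped.

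**Figure D1:**
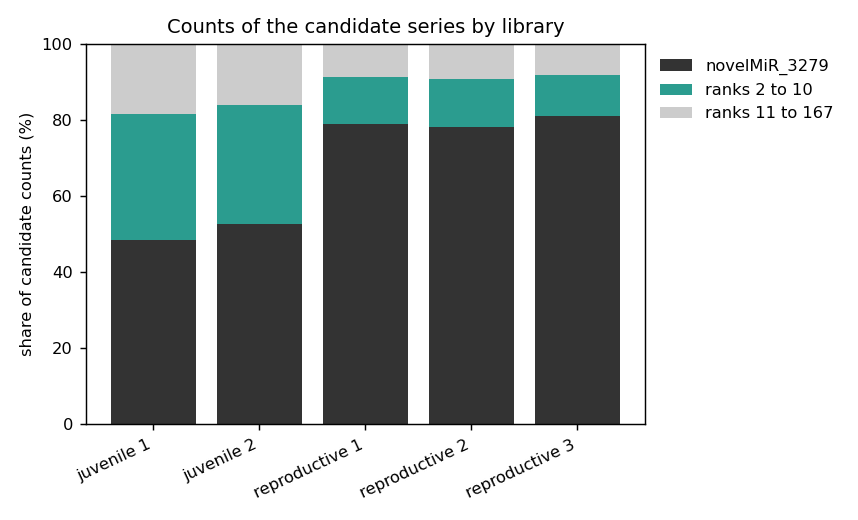
Share of the candidate counts (%, vertical axis) in each of the 5 libraries (horizontal axis), split into novelMiR_3279, the candidates ranked 2 to 10 by mean CPM, and all others. novelMiR_3279 takes 48.4% and 52.7% of the bar in juvenile libraries and between 78.2% and 81.1% in reproductive ones.

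The total of the series moved with this candidate. All candidates together held 0.0163% and 0.0174% of all counts in juvenile replicates 1 and 2, against 0.0352%, 0.0318% and 0.0355% in reproductive replicates 1, 2 and 3, a mean 2.03-fold higher. Without novelMiR_3279 the share was 0.00840% and 0.00825% in juvenile buds against 0.00739%, 0.00693% and 0.00673% in reproductive libraries, a mean 0.843 times the juvenile one. The groups did not overlap in either case, and the direction was opposite (exact permutation p = 0.1 for each, the smallest possible, and 0.1 after adjustment for the first). The same reversal was seen against the sum of the named miRNAs within each library. The quotient of candidates over named miRNAs was 0.0405 and 0.0420 in juvenile buds against 0.0675, 0.0734 and 0.0840 in reproductive libraries. It became 0.0209 and 0.0199 against 0.0142, 0.0160 and 0.0159 without novelMiR_3279 (exact permutation p = 0.1 for both quotients).

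Single candidates were compared between the groups with edgeR's quasi-likelihood test, fitted over the whole table with library sizes scaled by TMM (trimmed mean of M-values) and p-values adjusted over all features tested. The test required 10 or more counts in 2 or more libraries, which 110 of the 167 candidates had. Of these 110, 36 reached 10 counts in reproductive libraries alone and 2 in juvenile libraries alone. At an adjusted p under 0.05, 6 candidates were higher in reproductive libraries, where 21.1% of all features were, and 46 were lower, where 24.3% of all features were. In percent of the 110 candidates these counts are 5.45% higher and 41.8% lower. The median log2 fold change (reproductive over juvenile) was -0.76 over the candidates tested and 0.08 over all features. Among the 74 candidates with at least 10 counts in a juvenile library, 2 were higher and 46 lower. That condition favours candidates high in juvenile libraries, as 10 counts are a higher normalised level there than in reproductive libraries. The share of all features under it was not computed, so nothing is read from this split. The 36 other candidates had under 10 counts in both juvenile libraries and passed through the reproductive group. That favours higher calls among them (4 higher, 0 lower), although log2 fold changes of both signs occurred. Nothing is read from the direction of their calls. With no count minimum all 167 candidates were tested, and 9 were higher against 16.8% of all features and 55 lower against 16.4%. In bulk libraries, fewer cells that make a small RNA and less of it per cell cannot be told apart.

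How the libraries were scaled moved all of these values together. Under TMM the effective size of reproductive libraries was 3.08-fold that of juvenile ones, and for the sums of counts this quotient was 1.41. The median log2 fold change of all features was 1.19 under the sums and 0.52 with TMM factors taken from named and candidate miRNAs alone. Log2 fold changes of candidates lay from 1.05 to 1.14 higher under the sums and from 0.41 to 0.46 higher with TMM over miRNAs. Under the sums 30 candidates were called higher and 22 lower, where 83.3% and 2.46% of all features were. With TMM over miRNAs 11 were higher and 39 lower, where 43.4% and 9.65% of all features were. DESeq2, with its own size factors, gave 3 higher and 43 lower, where 12.9% and 21.1% of all features were. Relative to their geometric mean, its factors ran from 0.435 to 1.67, and the TMM library factors from 0.442 to 1.66. As a scaling it is thus close to TMM, and it differs in the test, but it is counted here as 1 of 4 scalings. Candidates that it gave no adjusted p, such as novelMiR_677, count as not called. In each of the 4 scalings the share of candidates called higher was below that of all features and the share called lower above it. A change of scaling shifts candidates and all features together, so the 4 comparisons are not independent. That they go the same way adds nothing to the first of them. Across these scalings 3 candidates were called higher each time (novelMiR_3279, novelMiR_278 and novelMiR_4248) and 22 lower each time. The direction depended on the scaling for 43 of the 110, and 2 (novelMiR_4245 and novelMiR_2998, the latter named after its values were seen) were called lower under TMM and higher under the sums.

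**Figure D2:**
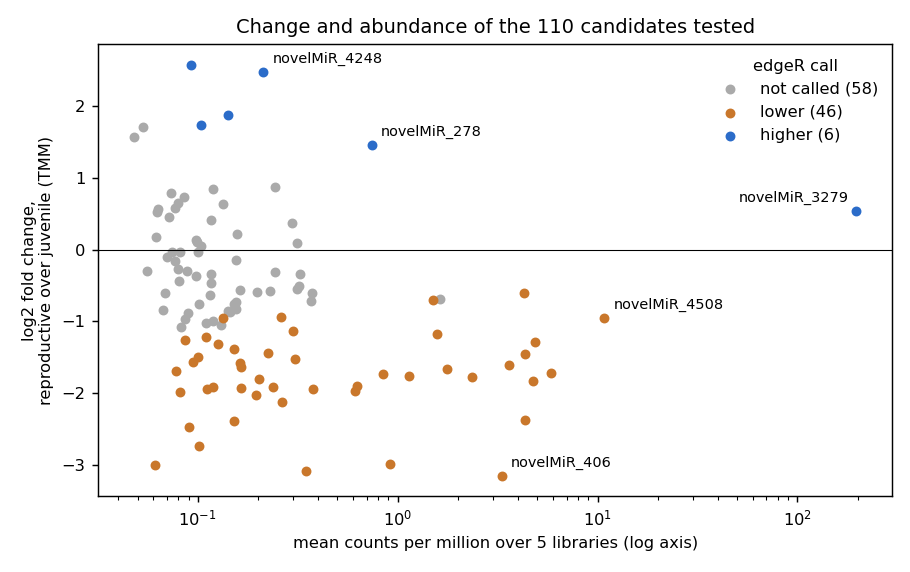
Log2 fold change of reproductive over juvenile libraries under TMM (vertical axis) against the mean CPM over the 5 libraries (horizontal log axis) for the 110 candidates tested, coloured by the edgeR call. The 46 candidates called lower reach from rare candidates up to novelMiR_4508 at 10.8 CPM, and novelMiR_3279 stands alone at the right with 197 CPM and a log2 fold change of 0.53.

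The 10 most abundant candidates were all called under TMM, 1 higher and 9 lower. Values below are TMM-normalised counts, for juvenile replicates 1 and 2 and then for reproductive replicates 1, 2 and 3. novelMiR_3279 had 13041 and 17699 in juvenile buds against 23446, 20651 and 22624 in reproductive libraries, 1.45-fold higher in the fit (log2 fold change 0.53 ± 0.13 SE, adjusted p = 0.0030 in edgeR). The groups did not overlap, and the 2 juvenile libraries differed more from each other than the 3 reproductive ones did. Without juvenile replicate 1, the lowest library, the log2 fold change was 0.33 (edgeR adjusted p = 0.060). It was 1.67 under the sums. novelMiR_4508 had 1836 and 1753 against 1307, 786 and 700, 1.93-fold lower (log2 fold change -0.95 ± 0.18 SE, adjusted p = 0.00048 in edgeR). Reproductive replicate 1 lay between the juvenile libraries and the other two, and under the sums the value turned to 0.16 (edgeR adjusted p = 0.40).

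Of the other 8 candidates among the 10 most abundant, the 4 with the strongest falls were novelMiR_1598, novelMiR_5090, novelMiR_75 and novelMiR_406. novelMiR_1598 had 1188 and 1438 against 403, 415 and 374, a 3.29-fold fall (log2 fold change -1.72 ± 0.10 SE, adjusted p = 9.8e-10 in edgeR). Its 3 reproductive libraries lay close together and far below both juvenile ones. novelMiR_5090 had 1023 and 1200 against 263, 367 and 306, a 3.56-fold fall (log2 fold change -1.83 ± 0.12 SE, adjusted p = 5.1e-09 in edgeR). novelMiR_75 (also novelMiR_2304) had 1064 and 1325 against 299, 216 and 172, a 5.18-fold fall (log2 fold change -2.37 ± 0.16 SE, adjusted p = 6.2e-09 in edgeR). novelMiR_406 had the strongest fall of all candidates tested. Its values were 923 and 1273 against 150, 121 and 98.1, an 8.84-fold fall (log2 fold change -3.14 ± 0.15 SE, adjusted p = 4.9e-10 in edgeR), and it stood at -2.02 under the sums. In raw counts novelMiR_406 had 543 and 562 in juvenile buds against 250, 178 and 154 in reproductive libraries, so it was lower in the deeper libraries before any scaling.

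The remaining 4 fell under TMM, and 3 of those calls did not hold under the sums. novelMiR_4732 had 770.1 and 1103 against 497, 337 and 308, a 2.44-fold fall (log2 fold change -1.28 ± 0.17 SE, adjusted p = 1.5e-05 in edgeR, and -0.16 under the sums). novelMiR_2221 had 874 and 876 against 186, 385 and 388, a 2.75-fold fall (log2 fold change -1.46 ± 0.21 SE, adjusted p = 2.7e-05 in edgeR, and -0.33 under the sums). Reproductive replicate 1 was the low library of novelMiR_2221 and the high one of novelMiR_4732. novelMiR_2430, whose counts stand under 4 names, had 702 and 854 against 164, 318 and 282, a 3.06-fold fall (log2 fold change -1.61 ± 0.19 SE, adjusted p = 3.3e-06 in edgeR). novelMiR_4245 had 549 and 670.4 against 404, 405 and 382, a 1.53-fold fall under TMM (log2 fold change -0.61 ± 0.10 SE, adjusted p = 0.00017 in edgeR). It stood at -0.17 with TMM over miRNAs (edgeR adjusted p = 0.28) and went up to 0.51 when scaled on the sums (edgeR adjusted p = 0.00018), so its direction is set by the scaling.

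**Figure D3:**
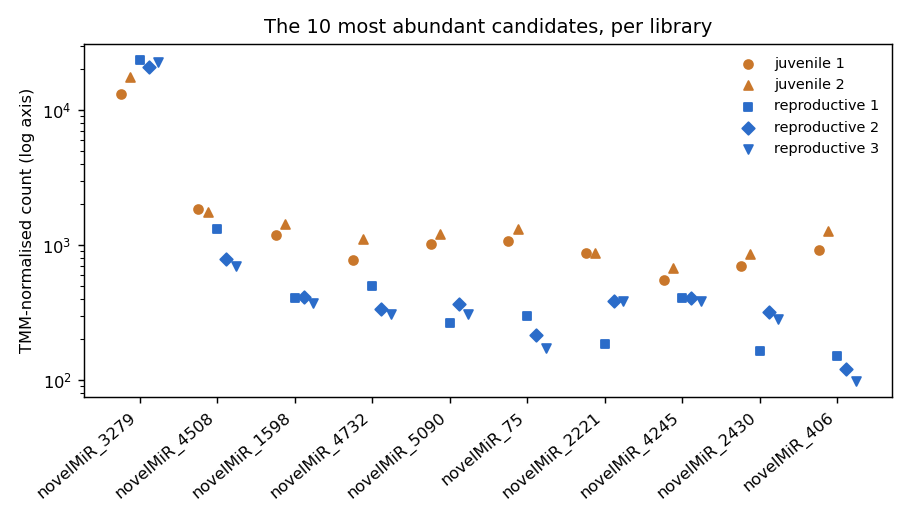
TMM-normalised counts (vertical log axis) of the 10 most abundant candidates (horizontal axis) in each of the 5 libraries, with juvenile libraries in orange and reproductive libraries in blue. For novelMiR_3279 the blue points lie above the orange ones, and for the other 9 they lie below.

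Among less abundant candidates, 6 joined novelMiR_75 and novelMiR_406 as the 8 with the strongest falls. novelMiR_384 had 272 and 315 normalised counts in juvenile buds against 49.3, 29.2 and 30.6 in reproductive libraries, a 7.94-fold fall (log2 fold change -2.99 ± 0.19 SE, adjusted p = 2.6e-09 in edgeR). novelMiR_1124 had 104 and 122 against 15.6, 12.9 and 10.8, an 8.46-fold fall (log2 fold change -3.08 ± 0.23 SE, adjusted p = 2.6e-08 in edgeR). In both, each reproductive library lay far below both juvenile ones, and reproductive replicate 1 was the highest of its group. The other 4 rested on few reads. novelMiR_1315 had 10 and 10 raw counts against 4, 5 and 2 (log2 fold change -3.00 ± 0.51 SE), novelMiR_3054 had 14 and 17 against 6, 9 and 6 (-2.73 ± 0.42 SE), novelMiR_5039 had 15 and 11 against 4, 6 and 11 (-2.47 ± 0.45 SE), and novelMiR_4672 had 28 and 15 against 9, 13 and 15 (-2.39 ± 0.35 SE). Their edgeR adjusted p-values ran from 3.9e-05 to 0.00033. All 8 were called lower in each of the 4 scalings. novelMiR_1315 and novelMiR_3054 reached 10 counts in the juvenile libraries alone, so they entered the test through the group in which they were high, and their calls are given as a description. Both fell below the count minimum when a juvenile library was left out.

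Besides novelMiR_3279, 5 candidates were called higher. novelMiR_278, the most abundant of them, had 37.4 and 27.2 normalised counts in juvenile buds against 58.3, 127 and 88.6 in reproductive libraries, 2.74-fold higher (log2 fold change 1.46 ± 0.36 SE, adjusted p = 0.0039 in edgeR). The groups did not overlap, and the reproductive libraries spread over a wide range. Without juvenile replicate 2 the log2 fold change was 1.27 (edgeR adjusted p = 0.071). novelMiR_4248, whose counts stand under 5 names, had 3 and 2 raw counts in juvenile buds against 40, 37 and 52 in reproductive libraries (log2 fold change 2.47 ± 0.49 SE, adjusted p = 0.00065 in edgeR). It entered the test through the group in which it was high, having under 10 counts in both juvenile libraries. Its call is therefore given as a description. The pooled counts were 129 against 5, which divided by the TMM library factors gave a ratio of 5.64 (exact 95% interval 2.36 to 17.7, covering counting error only). On the sums its log2 fold change was 3.56.

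The remaining 3 were nearly absent from the juvenile libraries, and their calls were fragile. novelMiR_677 (3 names) had 1 and 1 raw counts against 24, 20 and 13, a pooled ratio of 6.23 on the same TMM scale (exact 95% interval 1.65 to 52.7; edgeR adjusted p = 0.010). novelMiR_2855 had 4 and 1 against 32, 27 and 26, a pooled TMM ratio of 3.72 (1.53 to 11.7; edgeR adjusted p = 0.0082). novelMiR_4745 had 3 and 1 against 26, 14 and 22, a pooled TMM ratio of 3.39 (1.26 to 12.8; edgeR adjusted p = 0.030). Like novelMiR_4248, none of the 3 had 10 counts in a juvenile library, so they entered the test through the group in which they were high. Their calls are likewise given as a description. The call of novelMiR_677 ended when either juvenile library was left out (edgeR adjusted p = 0.095 without replicate 1 and 0.056 without replicate 2), and so did that of novelMiR_4745 (0.071 and 0.18). That of novelMiR_2855 ended without juvenile replicate 2 (0.085). With DESeq2, novelMiR_2855 and novelMiR_4745 did not pass (adjusted p = 0.0504 and 0.12), and novelMiR_677 was given no adjusted p. Without reproductive replicate 1, 2 or 3, 6.25%, 6.93% and 5.83% of candidates tested were called higher, against 23.7%, 18.3% and 18.7% of repeats. Called lower were 53.1%, 45.5% and 42.7%, against 25.8%, 22.0% and 21.8% of repeats. Fits without a juvenile library hold a single juvenile library, so numbers of calls from them are not compared.

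**Figure D4:**
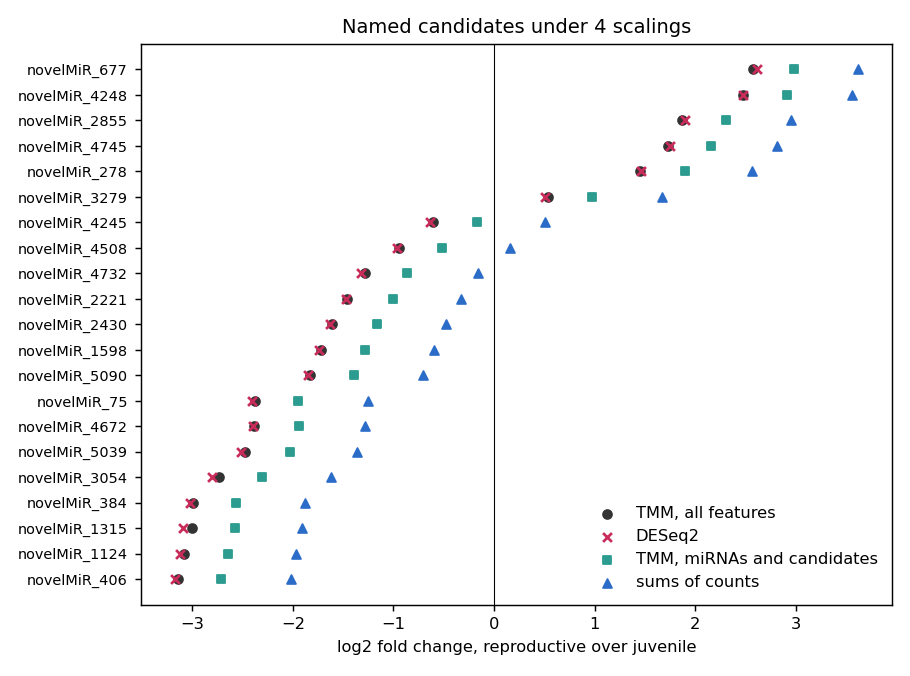
Log2 fold change of reproductive over juvenile libraries (horizontal axis) for the 21 candidates described singly (vertical axis), under TMM over all features, DESeq2, TMM over named and candidate miRNAs, and the sums of counts. The sums place every candidate further right, and novelMiR_4245 and novelMiR_4508 cross 0, at 0.51 and 0.16.

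The rest of the series was mostly lower or not called. Of the 20 candidates ranked 11 to 30 by mean CPM, 12 were lower (1.62-fold to 8.46-fold), 1 was higher and 7 were not called. Of the 80 tested candidates ranked 31 or below, all at 0.300 CPM or less, 25 were lower (1.92-fold to 8.00-fold), 4 were higher and 51 were not called. Over the 46 candidates called lower, 41 fell at least 2-fold and 10 at least 4-fold. Of the 58 not called, 38 had a log2 fold change below 0 and 20 above. Their median standard error was 0.45, against 0.29 for those called lower, and their median count summed over the 5 libraries was 62.5 against 146. Normalised counts of the 110 candidates tested were also compared for overlap between the groups. They were lower without overlap for 66 (60%), where 33% of all features were, and higher without overlap for 14 (12.7%), where 36.1% were.

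Reproductive libraries differed among themselves for a few candidates. Among the 30 most abundant, reproductive replicate 1 was the library furthest from the median of its group for 15, replicate 2 for 8 and replicate 3 for 7. It exceeded both others more than 2-fold for 2 of them, named here after their values were seen. novelMiR_1294 (also novelMiR_2762) had 280.1 normalised counts in reproductive replicate 1 against 95.6 and 74.6 in the others, with 265 and 222 in the juvenile libraries. novelMiR_1086 had 60.1 against 19.7 and 21.0, with 56.1 and 56.6 in the juvenile libraries. In both, reproductive replicate 1 stood at the juvenile level, and neither was called (edgeR adjusted p = 0.16 and 0.17). Without reproductive replicate 1 the log2 fold change went from -0.69 to -1.52 for novelMiR_1294 and from -0.72 to -1.45 for novelMiR_1086. Both were picked by the high value of that library, so a fall without it was bound to follow. No call is read from it.

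Shares of the series, which need no scaling between libraries, place each candidate against the others, and they depend on the base. Because novelMiR_3279 takes most of the counts, shares were also taken over the other candidates alone, a choice made after the data were seen. On that base novelMiR_406 held 6.65% and 8.00% in juvenile buds against 2.41%, 2.10% and 1.86% in reproductive libraries. novelMiR_75 held 7.66% and 8.33% against 4.80%, 3.75% and 3.26%. novelMiR_4245 held 3.95% and 4.21% against 6.49%, 7.03% and 7.24%. Its share of the other candidates was thus higher in reproductive libraries although its TMM value fell. For these 3 the groups did not overlap (exact permutation p = 0.1 each, and 0.24 after Benjamini-Hochberg adjustment over 109 candidates). On the same base novelMiR_4508 held 13.2% and 11.0% against 21.0%, 13.7% and 13.2%, with the excess in reproductive replicate 1 (exact permutation p = 0.4). The base set the direction for much of the series. With novelMiR_3279 in it, the shares of 15 candidates were higher and of 62 lower without overlap between the groups, and without it 56 were higher and 22 lower. Within a library, leaving out novelMiR_3279 multiplies every other share by the same factor, which is larger in reproductive libraries. The change in these counts thus follows from novelMiR_3279. No share over all features stands beside them, so nothing is read from them about the other candidates. The smallest permutation p of 0.1 was reached by 66 of 110 candidates on the first base and 46 of 109 on the second, with smallest adjusted values of 0.17 and 0.24.

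Other classes of small RNA in the same fit serve as a reference for these counts, with rows of identical counts taken once within a class. Under TMM, 16 of 64 named apple miRNAs were called higher and 23 lower, with a median log2 fold change of -0.15. Among 251974 repeats, 21.1% were higher and 24.6% lower, with a median of 0.06. The candidates of the other naming series gave 2 higher and 4 lower of 12 tested, with a median of -0.51. The median of the novelMiR candidates was -0.76 under TMM, and 0.34 under the sums, where the named miRNAs stood at 0.96 and the repeats at 1.17. These differences between classes were not tested. The novelMiR series was detected about as widely as the named miRNAs, with 95.8% and 92.2% of candidates against 92.4% and 86.1% of named miRNAs in the juvenile libraries. Its typical member was rarer, with a median of 52 counts summed over the 5 libraries against 339. In the juvenile libraries 59.5% and 54.8% of the other naming series were detected, and 98.2% and 96.5% of repeats. How the candidates were predicted is not given, so the part that their selection plays in detection was not tested.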

How the data were processed

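The authors deposited one table of whole-number read counts per feature, with no normalization. Per the submitters' processing notes, Bowtie 1.1.2 was used; not given in the sources used here are its settings, the genome build, the length filters, the candidate prediction and the treatment of reads with several matches. Identical counts under several names occur, so sums over rows can count a read more than once and are not read numbers. Columns were matched to samples by the initials and number in their names. None of the 269 names matched the RefSeq gene table.

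Computations used R 4.3.3, edgeR 4.0.16 and DESeq2 1.42.0. The 282619 features with 10 or more counts in 2 or more libraries entered edgeR's quasi-likelihood test with group as the only term, TMM factors from 0.58 to 1.42, and Benjamini-Hochberg adjustment over all of them at 0.05. The common biological coefficient of variation was 0.0758. Standard errors are the log2 fold change over the square root of F. Normalised counts are counts divided by the effective library size relative to its geometric mean over libraries. For quotients and shares the test was a two-sided exact permutation test. The candidates described singly are the 10 with the highest mean CPM, the most abundant of each library, and the 8 with the largest change in each direction among those called with groups that do not overlap. No candidate was absent from one group with at least 10 counts in each library of the other, the last part of that rule. Members, rule and alternatives were chosen with earlier results of these data known. The alternatives tried were other scalings, DESeq2, other count minimums, identical rows fitted once, a replicate block and leaving out each library. Intervals cover counting error only.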

Additional observations from a re-analysis of the deposited data

How the results depend on the processing

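The candidates called higher numbered 30 under the sums of counts, 11 with TMM over named and candidate miRNAs and 3 with DESeq2, against 6 in edgeR with TMM. They numbered 6, 7 and 6 without reproductive replicate 1, 2 and 3. Those called lower numbered 22 under the sums, against 46, and 51, 46 and 44 without reproductive replicate 1, 2 and 3. Shares of other features called in these fits are given above. Of the 46, 20 were called lower in all 4 scalings and in every fit with 1 library left out. Of the 6 called higher, only novelMiR_4248 kept its call in all of these fits. It passed the count minimum through the reproductive libraries alone, so this is given as a description. A fit without 1 juvenile library assumes that the lone sample varies like the other group. Under the sums the log2 fold changes of novelMiR_4508 (0.16) and novelMiR_4245 (0.51) reversed.

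Leaving out the most abundant candidate reversed the difference in library share (-0.0013 against 0.0173 percentage points) and in the log2 quotient over named miRNAs (-0.41 against 0.86). Shares within the series that did not overlap between groups went from 15 higher and 62 lower to 56 higher and 22 lower, which follows from the share of novelMiR_3279. Among the candidates described singly by rule, the differences of novelMiR_4508 (3.85 percentage points), novelMiR_4732 (0.316) and novelMiR_4245 (2.84) reversed. The groups of novelMiR_4732 overlapped, with 5.54% and 6.93% in juvenile against 7.98%, 5.85% and 5.83% in reproductive libraries (exact permutation p = 0.8). For novelMiR_4508 (exact permutation p = 0.4) and novelMiR_4732, reproductive replicate 1 was the highest library. Candidates found in all 5 libraries numbered 55 at 10 counts, 14 at 1 CPM and 243 with every row counted, against 149.

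With the replicate number as a block, edgeR called 5 candidates higher (4.55%) and 44 lower (40%), where 16.5% and 19.7% of repeats were. Of these candidates, 5 and 43 were called without the block, and novelMiR_4745 lost its call (log2 fold change 1.72, edgeR adjusted p = 0.051). The number is not known to pair libraries. Deviations of same-numbered libraries correlated at -0.12 and -0.02 over features. With 2 juvenile libraries their deviations mirror each other, so these correlations cannot decide whether the number pairs libraries. Median counts of 6 to 14 per library limit what can be detected for most candidates.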
